A study of Rattus norvegicus with 12 samples.

Results

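The S100 genes encode small calcium-binding proteins, and 6 of them were followed here in the blood of rats given lipopolysaccharide (LPS), namely S100a4, S100a8, S100a9, S100a10, S100a11 and S100a13. They were chosen by gene symbol in the platform annotation. Each had 1 probe, so 6 probes of 7200 and 6 genes of 3939 with a single symbol were involved. Every value is a log2 ratio of an LPS-treated rat to a pool of control RNA, measured on 2-colour arrays: 1 on this scale is a doubling and -1 a halving. The groups were 3 rats taken 6 h after LPS (numbered 2, 4 and 6), 3 rats taken 2 h after LPS (numbered 1, 2 and 3), and a control pool for each time. Every rat was run in both dye orientations, on an array the labels call fluor and another they call flip. Because both read the same pair of RNA samples, a rat counts once, as the mean of its 2 arrays (n = 3 at each time). The labels name total RNA and Rattus norvegicus, and the series title alone names blood. The sources used here do not give strain, sex, age, LPS dose and route, or the number of animals in a pool.

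S100 proteins are built from a pair of EF-hands, a helix-loop-helix fold that holds a calcium ion, and most work as dimers that bind and regulate other proteins when calcium rises. S100A8 and S100A9 form the heterodimer calprotectin, which fills much of the cytosol of neutrophils and is also made by monocytes; released from cells, it withholds metal ions from microbes and is sensed through Toll-like receptor 4 and the receptor RAGE. LPS, a cell wall component of Gram-negative bacteria, is itself sensed through Toll-like receptor 4. S100A10 and S100A11 pair with annexins at membranes, S100A4 acts on the cytoskeleton, and S100A13 takes part in the release of proteins that lack a signal peptide.

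A positive value is taken to mean more transcript after LPS, a direction that the labels do not state and that is likely rather than settled. It rests on textbook LPS-induced genes, of which 8 of 28 listed were measured: 6 rose and 0 fell at 6 h, 4 rose and 0 fell at 2 h, and 5 lay above 0 on all 12 arrays in either dye orientation. Among these genes, Nfkbia stood at -0.11 at 6 h (limma adjusted p = 0.0667), with 3 of 12 arrays above 0, and Tnf at -0.0037 at 2 h. At 6 h 1 of the 8 was called lower under quantile normalization, on the flip arrays alone and in a fit of all 12 arrays with a dye term. There 6, 7 and 7 rose. The listed genes were chosen with the values known. Over all probes, the 2 orientations of a rat correlated between -0.23 and 0.25 (Pearson), values on either side of 0. Arrays of the same RNA thus showed little or no agreement over the probes as a whole. If the flip arrays had instead to be turned, only what differs between a rat's 2 arrays would remain, and those values are given for each of the 6 genes below. The ratio gives no level of expression, so no gene is said to be more abundant than another, and in whole blood a change in the cells that carry a transcript cannot be told apart from a change in transcript per cell.

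At 6 h S100a9 rose and S100a4, S100a10 and S100a13 fell, 4 of the 6 genes, against 19.0% of all named genes called at that time (8.30% up and 10.7% down). At 2 h S100a9 and S100a11 rose and S100a4, S100a10 and S100a13 fell, 5 of the 6, against 19.2% of all named genes (9.34% up and 9.82% down). A call is a Benjamini-Hochberg adjusted p under 0.05 in a limma fit of all 3939 genes. In S100a8 no change was called at either time, nor in the 3 other S100 genes on the array (S100a7a, S100b and S100g). The 6 genes were chosen with earlier results of these data known, so they are not an unselected sample of the family. The median of the 6 ratios was -0.12 at 6 h and -0.10 at 2 h, beside 0.0069 and -0.0070 over all genes. The family thus did not move as a block: the ratios of its members spanned from 6.50-fold the control to 63.9% of control at 6 h, and from 7.90-fold the control to 58.6% of control at 2 h.

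**Figure D1:**
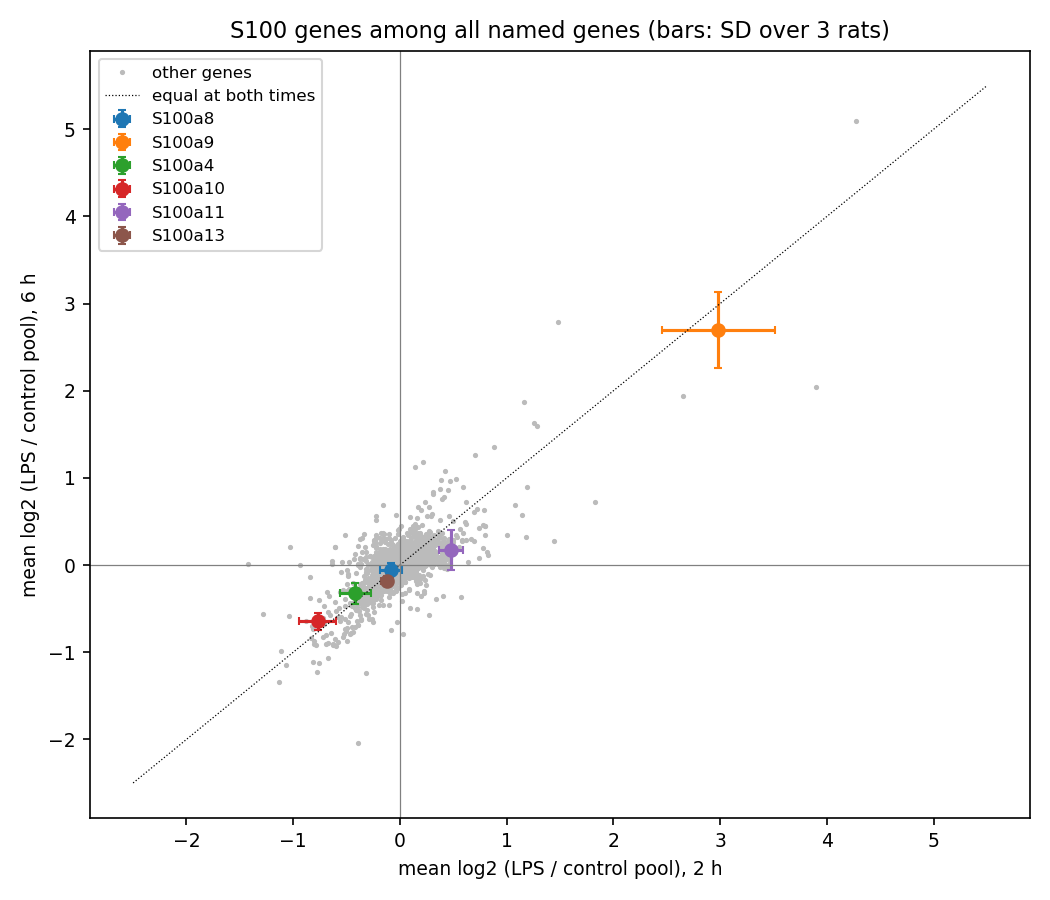
Mean log2 ratio to the control pool at 2 h (horizontal axis) and 6 h (vertical axis) for every named gene (grey) and the 6 S100 genes (coloured, bars are SD over 3 rats). S100a9 stands at 2.70 at 6 h and 2.98 at 2 h, far from the grey cloud, S100a10 lies at its lower left, and S100a8 sits at its centre.

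The S100a9 ratio was large in every rat. On the fluor and flip arrays S100a9 read 3.58 and 2.71 in rat 2, 2.43 and 2.12 in rat 4, and 2.82 and 2.55 in rat 6 at 6 h. At 2 h S100a9 read 3.44 and 3.37 in rat 1, 3.15 and 3.16 in rat 2, and 2.78 and 1.99 in rat 3. All 12 arrays lay above 0, which held for 3.88% of named genes, and the rats of the 2 times overlapped. The mean of S100a9 was 2.70 ± 0.44 at 6 h (SD, n = 3; 6.50-fold; limma adjusted p = 0.000347) and 2.98 ± 0.53 at 2 h (7.90-fold; limma adjusted p = 0.000432). It was the third highest mean of 3939 genes at either time, after Csnk2b and Prdx5 at 6 h and after Csnk2b and Il1b at 2 h. With the flip arrays turned, S100a9 stood at 0.24 at 6 h and 0.14 at 2 h, neither called. In the 18 other settings tried, S100a9 lay between 2.46 and 2.94 at 6 h and between 2.77 and 3.32 at 2 h, and was called in each.

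S100a8, which encodes the other chain of calprotectin, showed no such ratio. At 6 h its fluor and flip arrays read 0.18 and -0.14 in rat 2, 0.01 and -0.27 in rat 4, and 0.06 and -0.16 in rat 6. At 2 h they read -0.09 and -0.00072 in rat 1, -0.03 and 0.02 in rat 2, and -0.19 and -0.21 in rat 3. Values lay on either side of 0, with 4 of 12 arrays above it, and none reached the lowest S100a9 value of 1.99. The mean of S100a8 was -0.05 ± 0.07 at 6 h (SD, n = 3; limma adjusted p = 0.438; 95% interval of the fit -0.16 to 0.06) and -0.08 ± 0.10 at 2 h (limma adjusted p = 0.235; -0.19 to 0.03). At 6 h the fluor array was the higher in all 3 rats, by 0.22 to 0.32, so turning the flip arrays gave 0.13 (limma adjusted p = 0.00766). On the flip arrays alone S100a8 was called lower at 6 h (-0.19, limma adjusted p = 0.0377), while on the fluor arrays alone it stood at 0.08 (0.239). None of its 12 values was the repeated value that marks 242 to 298 probes on each array. The arrays hold no intensities here, so whether the S100a8 spot was above background is not known.

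Within a rat, S100a9 exceeded S100a8 in all 6 rats. The difference of the 2 log2 ratios was 3.13, 2.40 and 2.74 at 6 h (rats 2, 4 and 6) and 3.45, 3.16 and 2.58 at 2 h (rats 1, 2 and 3). It averaged 2.75 ± 0.36 at 6 h and 3.07 ± 0.44 at 2 h (SD, n = 3 each). These are the RNAs for the 2 chains of calprotectin, and each gene rests on a single probe named by the annotation. In the rat gene table of assembly GRCr8 the 2 genes are immediate neighbours on chromosome 2.

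**Figure D2:**
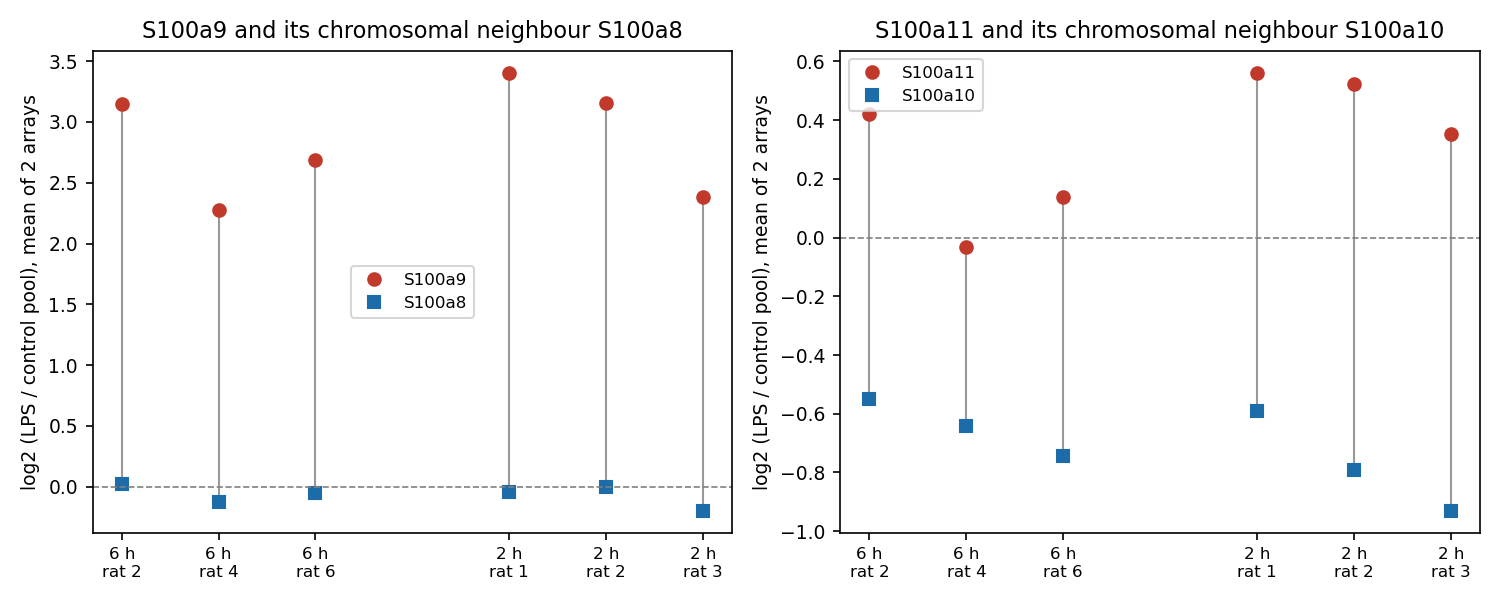
Log2 ratio to the control pool in each rat (mean of its 2 arrays) for S100a9 and S100a8 (left) and S100a11 and S100a10 (right), with the 6 h rats left of the 2 h rats and a grey line joining the 2 genes of a rat. S100a9 lies 2.40 to 3.45 above S100a8, and S100a11 lies 0.61 to 1.32 above S100a10, in every rat.

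Promoter sequence is shown for the pair of genes that rose at 2 h and for S100a4, which fell, as the letters just before the transcription start. The RefSeq promoter table (GRCr8) held 4 of the 6 genes, S100a4, S100a9, S100a11 and S100a13. Each line gives the 250 bases before the start, 5′ to 3′ on the gene's own strand, and capitals mark motifs found by search on either strand.
S100a9 promoter, GRCr8 chr2:178490623-178490872, minus strand: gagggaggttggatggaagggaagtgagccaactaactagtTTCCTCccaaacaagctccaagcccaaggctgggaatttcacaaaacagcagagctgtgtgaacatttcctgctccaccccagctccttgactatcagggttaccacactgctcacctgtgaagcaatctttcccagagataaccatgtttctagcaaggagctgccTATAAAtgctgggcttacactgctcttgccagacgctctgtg
S100a11 promoter, GRCr8 chr2:181874882-181875131, plus strand: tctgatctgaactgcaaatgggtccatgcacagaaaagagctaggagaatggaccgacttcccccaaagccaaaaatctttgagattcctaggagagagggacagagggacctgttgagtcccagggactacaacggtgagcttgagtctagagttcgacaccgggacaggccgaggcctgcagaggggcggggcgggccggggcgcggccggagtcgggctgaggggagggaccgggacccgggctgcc
S100a4 promoter, GRCr8 chr2:178388279-178388528, plus strand: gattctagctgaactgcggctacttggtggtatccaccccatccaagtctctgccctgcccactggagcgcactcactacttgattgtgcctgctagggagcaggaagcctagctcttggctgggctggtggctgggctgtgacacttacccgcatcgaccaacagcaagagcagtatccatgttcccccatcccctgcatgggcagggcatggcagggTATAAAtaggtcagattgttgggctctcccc
The motifs searched were the TATA box (TATAAA), an AP-1 form (TGANTCA), a C/EBP form (TTGCNNAA), an ETS form (GAGGAA) and the NF-kappaB consensus. TATAAA was found in S100a9, 42 bases before the start, and in S100a4, 31 bases before it, as it was in 13.1% of 27457 rat promoters of this length. The ETS form GAGGAA was found in S100a9 on the opposite strand, 209 bases before the start, and in 23.2% of all promoters. Shorter or other forms of these motifs were not searched. The AP-1, C/EBP and NF-kappaB forms were in none of the 4 windows, beside 6.36%, 9.20% and 6.41% of all promoters. S100a11 and S100a13 held none of the 5 searched forms in this window. None of the searched forms was shared by the genes that rose and absent from S100a4.

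The annexin-binding members moved in opposite directions at 2 h, while at 6 h only S100a10 was called. S100A10, also called p11, does not itself bind calcium; with annexin A2 it forms a tetramer at the cell surface that binds plasminogen. S100a10 read -0.69 and -0.42 in rat 2, -0.62 and -0.67 in rat 4, and -0.79 and -0.70 in rat 6 on the fluor and flip arrays at 6 h. At 2 h S100a10 read -1.07 and -0.11 in rat 1, -0.98 and -0.60 in rat 2, and -1.46 and -0.41 in rat 3. All 12 arrays lay below 0, which held for 6.37% of named genes. At 2 h the fluor array was the lower in all 3 rats, by 0.38 to 1.05, more than the SD of 0.17 between the rats.

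The mean of S100a10 was -0.65 ± 0.10 at 6 h (SD, n = 3; 63.9% of control; limma adjusted p = 0.00101) and -0.77 ± 0.17 at 2 h (58.6% of control; limma adjusted p = 0.000781). At 2 h only 19 of 3939 genes had a lower mean, and 44 did at 6 h. On the flip arrays alone the 2 h mean was -0.37 and was not called (limma adjusted p = 0.0528). With the flip arrays turned, S100a10 stood at -0.05 at 6 h and at -0.40 at 2 h, where it was still called (limma adjusted p = 0.0136).

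S100A11, or calgizzarin, binds annexins A1 and A2 when calcium rises. S100a11 read 0.63 and 0.21 in rat 2, 0.15 and -0.21 in rat 4, and 0.23 and 0.05 in rat 6 on the fluor and flip arrays at 6 h. At 2 h S100a11 read 0.80 and 0.32 in rat 1, 0.48 and 0.56 in rat 2, and 0.62 and 0.09 in rat 3. Of the 12 arrays 11 lay above 0, and the exception was the flip array of rat 4 at 6 h. The mean of S100a11 was 0.18 ± 0.23 at 6 h (SD, n = 3; 1.13-fold; limma adjusted p = 0.168) and 0.48 ± 0.11 at 2 h (1.39-fold; limma adjusted p = 0.00958). The 2 h call ended without rat 2 of that time (0.46, limma adjusted p = 0.0628) and on the flip arrays alone (0.32, limma adjusted p = 0.0969). Turning the flip arrays left S100a11 at 0.16 at 6 h and 0.16 at 2 h, neither called (limma adjusted p = 0.0661 and 0.112). The fluor arrays alone passed at 6 h (0.34, limma adjusted p = 0.0426).

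S100a11 and S100a10 also lie next to each other on chromosome 2 in GRCr8, with no coding gene between them and 58 coding genes between S100a9 and S100a11. S100a11 exceeded S100a10 in all 6 rats, by 0.97, 0.61 and 0.88 at 6 h (rats 2, 4 and 6) and by 1.15, 1.32 and 1.28 at 2 h (rats 1, 2 and 3). In both neighbouring pairs 1 gene thus stood above the other in every rat.

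S100A4, known as metastasin, binds the heavy chain of non-muscle myosin IIA and promotes cell movement. S100a4 read -0.44 and -0.48 in rat 2, -0.28 and -0.15 in rat 4, and -0.26 and -0.34 in rat 6 on the fluor and flip arrays at 6 h. At 2 h S100a4 read -0.50 and -0.25 in rat 1, -0.29 and -0.31 in rat 2, and -0.80 and -0.36 in rat 3. Again all 12 arrays were below 0 and the times overlapped. The mean of S100a4 was -0.32 ± 0.12 at 6 h (SD, n = 3; 79.8% of control; limma adjusted p = 0.0147) and -0.42 ± 0.14 at 2 h (74.8% of control; limma adjusted p = 0.00608). The 6 h call ended without rat 2 of that time (limma adjusted p = 0.0933) and without rat 6 (0.0591). S100a4 stood, with the flip arrays turned, at -0.0021 at 6 h and -0.11 at 2 h, neither called.

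S100A13 binds copper and joins synaptotagmin 1 and fibroblast growth factor 1 in the complex through which stressed cells release that growth factor. Its ratios were the smallest among the genes called. The rat means of S100a13 were -0.20, -0.22 and -0.12 at 6 h (rats 2, 4 and 6) and -0.16, -0.14 and -0.06 at 2 h (rats 1, 2 and 3), and single arrays ran from -0.32 to -0.03. The mean was -0.18 ± 0.05 at 6 h (SD, n = 3; 88.0% of control; limma adjusted p = 0.0122) and -0.12 ± 0.05 at 2 h (91.8% of control; limma adjusted p = 0.0489). The 2 h value sat at the threshold and missed it in 14 of the 19 alternative settings. Among them was each fit that left out 1 of the 6 rats (limma adjusted p = 0.0571 to 0.183). It also missed with each array centred on its median (0.0621), on the fluor arrays alone (0.0927) and on the flip arrays alone (0.125). The 6 h call ended without rat 2 (0.0864) or rat 4 (0.0712) of that time. With the flip arrays turned, S100a13 stood at -0.05 at 6 h and -0.0013 at 2 h, neither called.

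**Figure D3:**
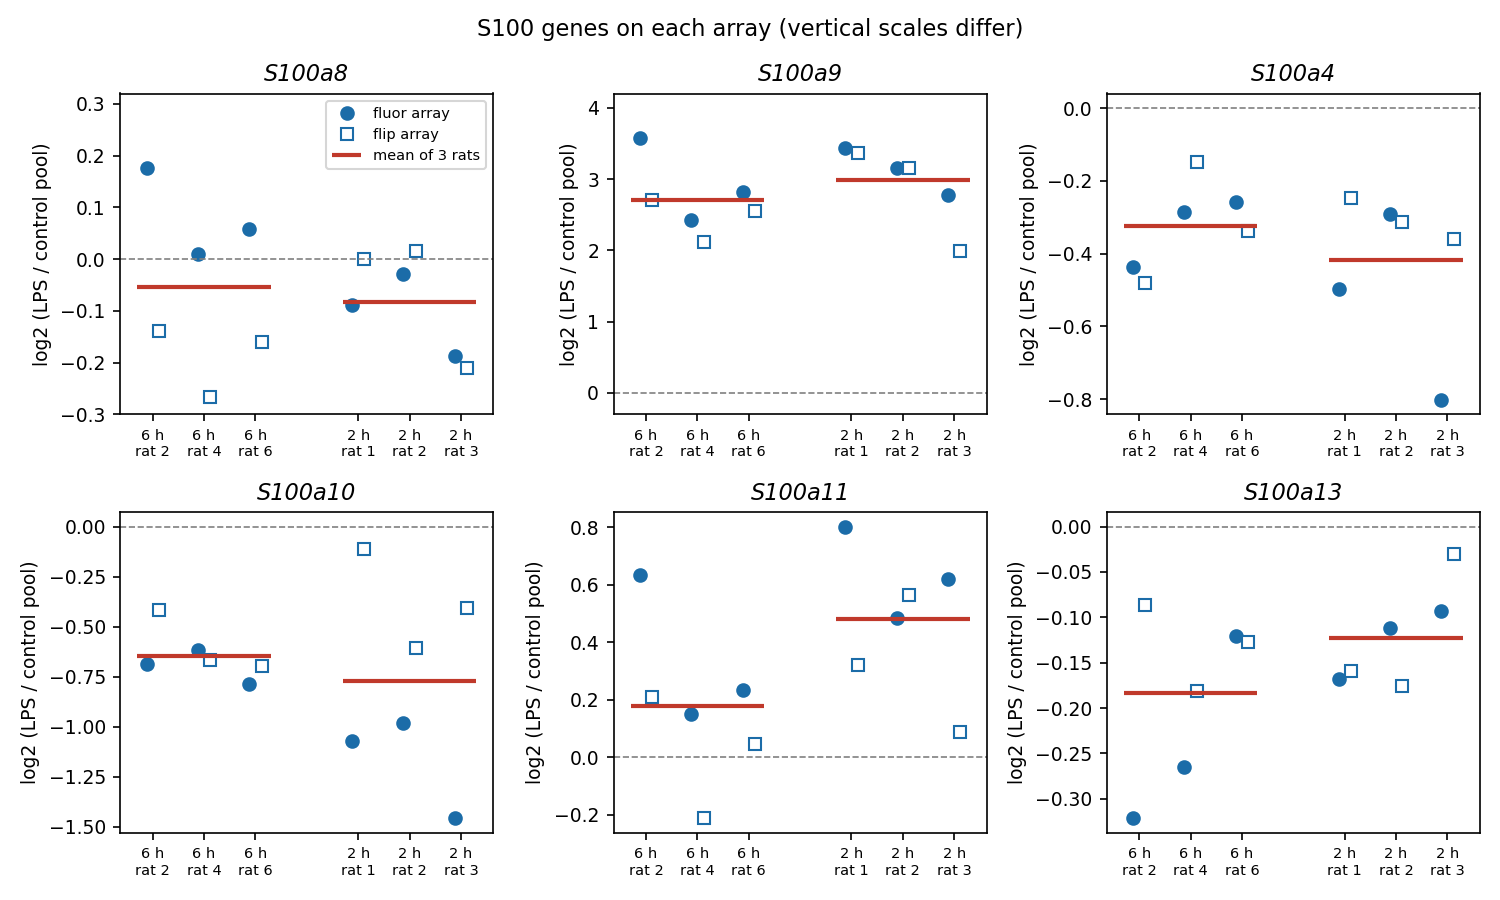
Log2 ratio to the control pool (vertical axes, scales differ between panels) on each fluor array (filled circles) and flip array (open squares) for the 6 S100 genes, with 6 h rats left of 2 h rats and red lines at the mean of 3 rats. S100a9 is above 0 on every array, S100a4, S100a10 and S100a13 are below 0 on every array, and in S100a10 the fluor arrays of the 2 h rats lie 0.38 to 1.05 below their flip arrays.

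The order of the 6 genes by mean ratio was S100a9, S100a11, S100a8, S100a13, S100a4 and S100a10 at either time. Neighbours in this order were close in the middle: the rats of S100a8 and S100a13 overlapped at both times, and at 6 h so did those of S100a11 and S100a8 and of S100a13 and S100a4. S100a9 stood clear of S100a11 at both times. The rat means of S100a10 lay below those of S100a4 at both times, while single arrays of these genes overlapped. At 2 h the gap was narrow, with the highest S100a10 rat at -0.591 and the lowest S100a4 rat at -0.580. Rats also ranked alike in S100a9 and S100a11, the genes that rose at 2 h. S100a9 and S100a11 were both highest in rat 2, then rat 6, then rat 4 at 6 h, and both highest in rat 1, then rat 2, then rat 3 at 2 h. This order was not particular to them. S100a8, not called, had the same order at 6 h, and S100a10, which fell, had the same order at 2 h. With 3 rats a time this is a description only.

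For 6 h minus 2 h, none of the 6 genes was called by limma, against 0.508% of all named genes, and 1 (S100a11) had an unadjusted p under 0.05. S100a11 differed by -0.30 ± 0.12 (SE; limma adjusted p = 0.300), S100a9 by -0.28 ± 0.30 (0.735) and S100a10 by 0.13 ± 0.09 (0.583). S100a4 differed by 0.09 ± 0.09 (limma adjusted p = 0.700), S100a8 by 0.03 ± 0.07 (0.882) and S100a13 by -0.06 ± 0.05 (0.624). The 95% interval of the fit for S100a9, -0.998 to 0.436, spans a lower and a higher ratio at 6 h. Each difference also holds any difference between the 2 control pools, which cannot be told apart from time.

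Of the rest of the S100 family, 3 further genes were on the array, S100a7a, S100b and S100g, and limma called 0 of them at either time. Their means lay between -0.04 and 0.09 at 6 h and between -0.03 and 0.0048 at 2 h, and 0 had an unadjusted p under 0.05. Turned flip arrays gave a fall in 2 of the 3 at 6 h and in 1 at 2 h. S100a7a lies between S100a4 and S100a8 on chromosome 2, so within this cluster S100a9 was the 1 measured gene that rose. Among 16 other genes for EF-hand proteins (calmodulin, calpains, reticulocalbins and others), 0 rose and 0 fell at 6 h, and 1 rose and 0 fell at 2 h. Their medians were 0.0028 and 0.0089 (2 and 4 at an unadjusted p under 0.05). Of all named genes, 19.0% were called at 6 h and 19.2% at 2 h.

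Genes for proteins that bind or receive S100 proteins moved unevenly. Of 17 measured, 4 rose and 2 fell at 6 h and 6 rose and 1 fell at 2 h, with medians of 0.02 and 0.0020, beside the 19.0% and 19.2% of all named genes called. The number that rose dropped to 2 at 6 h without any 1 rat of that time, and to 3 at 2 h without rat 2 or rat 3 of that time or on the flip arrays alone. Anxa1, which encodes annexin A1, the calcium-dependent membrane protein bound by S100A11, rose by 1.94 ± 0.62 at 6 h (SD, n = 3; limma adjusted p = 0.00372) and by 2.65 ± 0.58 at 2 h (limma adjusted p = 0.0012). Anxa2, the partner of S100a10, stood at 0.13 ± 0.36 at 6 h and -0.20 ± 0.12 at 2 h, called at neither time (limma adjusted p = 0.461 and 0.275). Without rat 4 of the 6 h group Anxa2 passed at both times, with 0.34 at 6 h (limma adjusted p = 0.0202) and -0.20 at 2 h (0.0411).

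Kcnk3, the potassium channel TASK-1 that S100A10 binds, stood at -0.27 ± 0.04 at 6 h and -0.28 ± 0.04 at 2 h, lower at both (limma adjusted p = 0.00172 and 0.00164), with all 12 arrays below 0, as in S100a10 itself. Myh9, the myosin bound by S100A4, stood at 0.02 at 6 h and rose by 0.26 ± 0.16 at 2 h (limma adjusted p = 0.802 and 0.0207), while S100a4 fell. Syt1, the synaptotagmin of the S100A13 complex, rose by 0.31 ± 0.13 at 6 h and by 0.28 ± 0.18 at 2 h (limma adjusted p = 0.0267 and 0.0379). The Syt1 calls and the Myh9 call ended on the flip arrays alone (0.08 and 0.07 for Syt1, 0.14 for Myh9), those of Syt1 without single rats too, and that of Myh9 without rat 3 of the 2 h group (limma adjusted p = 0.0538). Anxa1 (0.13 at 6 h and 0.32 at 2 h) and Kcnk3 (-0.03 and -0.0061) were not called with the flip arrays turned, while Syt1 was (0.23 and 0.22). Myh9 then stood at 0.02 at 6 h and 0.12 at 2 h, not called at either.

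Of the receptors, Tlr4 rose by 0.17 ± 0.09 at 6 h (limma adjusted p = 0.0247) and stood at -0.01 ± 0.02 at 2 h (0.845); the 6 h call ended without any 1 rat of that time and when neighbouring probes were subtracted (0.07). Emb, which encodes embigin and was listed with the S100 receptors, stood at 0.08 ± 0.37 at 6 h (limma adjusted p = 0.686). At 2 h Emb rose by 0.74 ± 0.19 (0.0105), a call that ended without rat 2 or rat 3 of the 2 h group (0.0689 and 0.0501). Turning the flip arrays gave Emb 0.20 at 6 h, where it passed (limma adjusted p = 0.0377), and 0.15 at 2 h, where it did not (0.130). Bsg, or basigin, which binds S100A9, stood at 0.24 ± 0.35 at 6 h and -0.09 ± 0.05 at 2 h, called at neither time. The 2 orientations differed widely: Bsg averaged -1.46 on fluor and 1.94 on flip arrays at 6 h, and -1.77 and 1.59 at 2 h. The sign of Bsg thus followed the dye orientation on all 12 arrays, whereas that of S100a9 was the same on each.

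**Figure D4:**
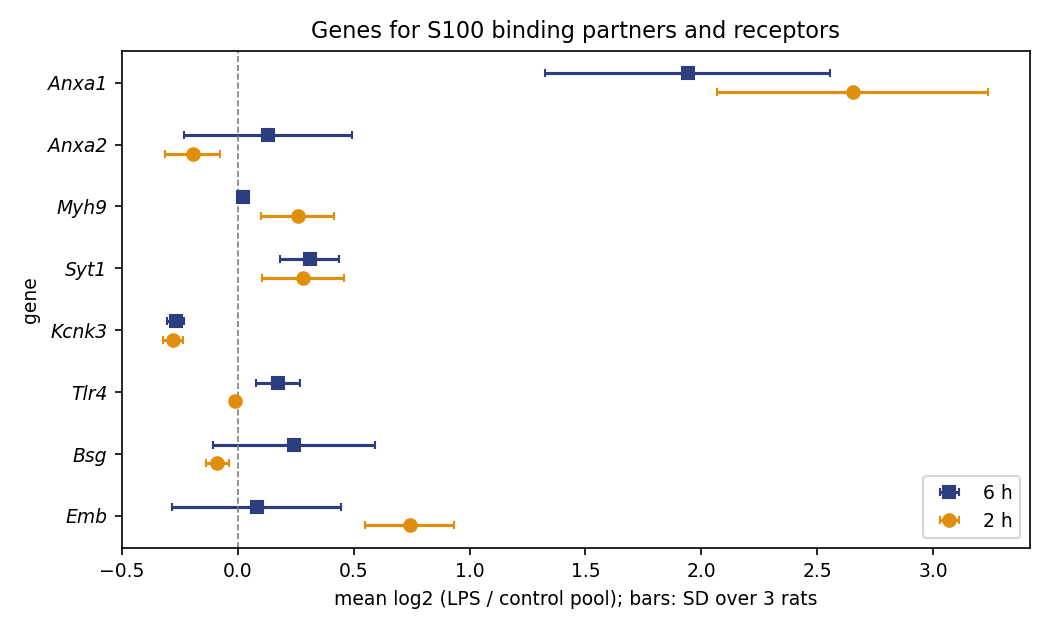
Mean log2 ratio to the control pool (horizontal axis, bars are SD over 3 rats) at 6 h (squares) and 2 h (circles) for 8 genes of S100 binding partners and receptors. Anxa1 stands apart at 1.94 and 2.65, and the other means lie between -0.28 and 0.74.

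Markers of blood cells, given as context for genes that neutrophils and monocytes carry, moved as follows. Their part in the S100 ratios was not tested. Counts in these lists, of 2 to 11 measured genes each, stand beside 19.0% of all named genes called at 6 h and 19.2% at 2 h. Whether a list differs from that share was not tested. Beyond the S100 genes, 2 of 4 measured neutrophil granule genes rose and 0 fell at either time, Lcn2 among them (0.61 ± 0.01 at 6 h and 0.69 ± 0.33 at 2 h, SD, n = 3). Chi3l1, of the same list, stood at -0.37 ± 0.24 at 6 h, where no change was called, and rose by 0.57 ± 0.25 at 2 h. In 5 of the 19 alternative settings Chi3l1 was called lower at 6 h. In the fit of all 12 arrays with a dye term, 2 genes of this list rose and 2 fell at 6 h. Means of this list ranged from -0.37 to 0.61 at 6 h and from -0.06 to 0.69 at 2 h. Of 3 neutrophil surface and oxidase genes, 1 rose and 0 fell at 6 h, and 1 rose and 1 fell at 2 h; Il1r2, the decoy receptor for interleukin-1, stood at 0.73 ± 0.24 and 0.62 ± 0.09. The 6 h call of Lcn2 ended in 3 of the 19 alternative settings, among them without rat 2 of that time (limma adjusted p = 0.0556). Outside the turned flip arrays its adjusted p reached 0.0737. The 2 h call of Chi3l1 ended without rat 2 of that time (0.0622) and on the flip arrays (0.0739), and the 2 h call of Il1r2 on the flip arrays (0.286). None of these genes reached the S100a9 ratio.

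Of 3 monocyte and macrophage genes 2 fell at 6 h and 1 at 2 h, with C1qb at -0.21 ± 0.03 and -0.20 ± 0.04. On the flip arrays alone 0 of the 3 were called at either time, with C1qb at -0.08 and -0.02 (limma adjusted p = 0.408 and 0.853). Of 4 T cell genes 2 fell at either time, with Cd3d at -0.69 ± 0.18 at 6 h and -0.39 ± 0.11 at 2 h. At 2 h 0 of the 4 were called without rat 2 of that time or on the flip arrays alone, where Cd3d stood at -0.37 and -0.26 (limma adjusted p = 0.0707 and 0.355). Of 3 B cell genes 1 fell at 6 h and 2 at 2 h, with Cd37 at -0.71 ± 0.03 and -0.45 ± 0.08. Beside them, S100a10 stood at -0.65 and -0.77 and S100a4 at -0.32 and -0.42. Among 4 NK and cytotoxic genes 2 rose at either time, among 11 erythroid genes 1 rose and 3 fell at 6 h and 5 rose and 1 fell at 2 h, and of 2 platelet genes limma called 0 at 6 h (1 at an unadjusted p under 0.05) and 1, higher, at 2 h. The erythroid counts rested on single rats: 0 rose and 1 fell at 6 h without rat 2 or rat 4 of that time, and 1 rose and 0 fell at 2 h without rat 2 of that time. The platelet call at 2 h ended without any 1 rat other than rat 3 of that time. Lcn2, Chi3l1, Il1r2, C1qb, Cd3d and Cd37 were not called at either time with the flip arrays turned.

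The genes whose 6 rat means lay nearest to those of a called S100 gene were found among 3894 genes, by the root mean square difference per rat. Anxa1 was nearest to S100a9, at 0.61, ahead of Il1b at 0.83 and Prdx5 at 1.09. This distance weighs the size of the ratios, so near genes need not vary together. Over the 12 arrays, the Pearson r with S100a9 was 0.92 for Anxa1, 0.56 for Il1b and 0.17 for Prdx5. Because each rat gave 2 of the 12 arrays, r mixes differences between rats with those between dye orientations. Anxa1 read 2.64, 1.499 and 1.68 at 6 h (rats 2, 4 and 6) and 3.17, 2.78 and 2.02 at 2 h (rats 1, 2 and 3). Nearest to S100a10 was Uso1 (0.11; means -0.68 at 6 h and -0.71 at 2 h), to S100a4 Csk (0.05; -0.32 and -0.42), to S100a11 Zdhhc12 (0.12; 0.08 and 0.38) and to S100a13 Psmg4 (0.02; -0.19 and -0.14). The Pearson r of these pairs was 0.70 for Uso1, 0.51 for Csk, 0.93 for Zdhhc12 and 0.53 for Psmg4. The next in line, with r in brackets, were Rpl18-ps7 (0.69) and Dbn1 (0.70) for S100a10 and Apc (0.79) and Cfl1 (0.55) for S100a4. For S100a11 they were Mt2A (0.30) and Eef1a2 (0.26), and for S100a13 Myef2 (0.20) and Rasa4 (0.72).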

How the data were processed

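The authors deposited 1 log2 ratio per probe and array for 12 arrays; the sources used here do not give dyes, scanner, background correction or normalization. The log base follows from the numbers themselves: as powers of 2, 100% of the deposited ratios below 5 were multiples of 0.0001 within 0.05 of that step, while other bases gave 8.56% to 15.0%. Medians per array ran from -0.020 to 0.0083, with SDs of 0.27 to 0.48, so each array was near 0 at its median as deposited. Precision is limited by the 3 rats at each time and the single control pool for each time.

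Gene names come from the platform's 2007 annotation (4190 of the 7200 probes with 1 symbol, 46 with several, 2964 with none), looked up in the GRCr8 table. Probes of a gene, then arrays of a rat, were averaged. All 6 rats entered 1 limma 3.58.1 fit (lmFit and eBayes, R 4.3.3) of 3939 genes with 4 residual degrees of freedom, adjusted by Benjamini-Hochberg and called under 0.05. Each time was tested against 0, and 6 h was tested against 2 h. Each time's control pool entered as a single RNA sample, so the spread between controls is left out. The labels do not say more of how the rats were kept apart, and p-values measure the spread between these rats.

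The 6 genes, the gene lists and the tests were chosen with earlier results of these data known. Named are the 6 genes, measured partners and receptors that bind them, up to 4 called genes of a list, and the 3 genes nearest by Euclidean distance over the 6 rats; genes not needed to describe a group were left unnamed. Alternatives covered scaling, dye orientation, repeated values, neighbouring probes (10 on either side), tests and left-out rats.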

Additional observations from a re-analysis of the deposited data

How the results depend on the processing

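Of the 6 S100 genes, 4 were called at 6 h and 5 at 2 h. With the flip arrays multiplied by -1, 1 was called at 6 h (S100a8, higher) and 1 at 2 h (S100a10, lower); by construction, only the gap between a rat's 2 arrays is left there. The flip arrays alone gave 2 at 2 h. Without single rats, 2 to 4 were called at 6 h and 3 to 4 at 2 h; the lowest counts came without rat 2 of the same time. For 6 h minus 2 h, 0 were called throughout. S100a9 at both times, S100a10 at 6 h and S100a4 at 2 h kept their calls in all 18 settings other than the turned flip arrays. S100a13 at 2 h lost its call in 14 of all 19 settings.

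Signs changed as follows. S100a8 at 6 h stood at 0.13 with the flip arrays multiplied by -1 and at 0.082 on the fluor arrays. For 6 h minus 2 h, S100a8 took -0.12 on the flip arrays, -0.061 with neighbouring probes subtracted, and -0.028 to 0.068 without single rats; on the flip arrays S100a4 took -0.017 and S100a10 -0.22. With the flip arrays multiplied by -1, S100a9 took 0.10 and S100a11 0.0064 there. The same setting gave Tlr4 0.033 at 2 h and -0.075 at 6 h, Bsg -1.70, Il1r2 -0.094, Chi3l1 0.17, Cd37 0.0072, Uso1 0.011 and Psmg4 0.017 at 6 h, Lcn2 -0.15 at 2 h, and Csk 0.0051 at 2 h and 0.12 at 6 h. Fluor arrays gave Tlr4 0.021 at 2 h and Bsg -1.46 at 6 h. Flip arrays gave Bsg 1.59 at 2 h and Anxa2 -0.029, Emb -0.12 and Zdhhc12 -0.039 at 6 h. Bsg at 2 h took 0.34 with scaled arrays and 0.10 with quantile normalization, Myh9 at 6 h -0.032 with neighbouring probes subtracted, and Emb at 6 h -0.10 to 0.26 without single rats, the lowest without rat 4. The cause was not tested. No paired analysis was possible because the 2 times share only the number 2 in their labels, which nothing ties to 1 animal.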
